A study of Mus musculus with 6 samples.

Results

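The transcripts described here encode 9 proteins that hold colon epithelial cells to one another: occludin (Ocln), the zonula occludens proteins ZO-1 (Tjp1) and ZO-3 (Tjp3), cingulin (Cgn), tricellulin (Marveld2), MarvelD3 (Marveld3), junctional adhesion molecule A (F11r), E-cadherin (Cdh1) and EpCAM (Epcam). A gene was taken when its symbol in the count table was one of these 9, a list drawn up with earlier results of these data known. The table lists 18477 genes, of which 14579 had enough counts to be tested, and these 14579 included each of the 9.

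RNA was sequenced from colon tissue of male C57BL/6 mice aged 6 to 8 weeks with colitis brought on by dextran sulfate sodium (DSS), a polymer that injures the colonic lining. The DSS group received phosphate-buffered saline by gavage every day for 14 days, and the DSS+BV group received the gut bacterium Bacteroides vulgatus on the same schedule. Both groups drank 2% DSS for the last 7 of these days, and each group gave 3 libraries, from 3 mice picked at random. Mice without DSS are not analysed here, so the comparison is of colitis with the bacterium against colitis without it.

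Epithelial cells of the gut are sealed near their apical edge by tight junctions, in which membrane proteins such as occludin, claudins and junctional adhesion molecules are tied to the actin cytoskeleton by plaque proteins of the ZO family and by cingulin. Just below lies the adherens junction, built on E-cadherin and its catenin partners. Weaker tight junctions let more of the gut contents pass between cells, and junction proteins are often examined in colitis for that reason. The question put to these libraries was whether the transcripts of these proteins differed in colitic colon when B. vulgatus had been given.

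The libraries held between 15293276 and 17254343 estimated counts. Simple columnar epithelium was well represented, since 12 of its markers summed to 13810 to 43370 CPM per library, while 6 measured squamous markers summed to at most 2.77 CPM, with the defining genes Krt5 and Trp63 at or near 0. CPM is a gene's count scaled to a library of fixed size, after correction for composition by TMM factors. Among the 12 epithelial markers, all were higher in mean in DSS+BV and none passed the test. The groups did not overlap for 5 of them, beside 6.37% of all tested genes separated upward. Their sum ran from 13810 to 23800 CPM in DSS and from 25170 to 43370 in DSS+BV. The genes Muc2 and Car1 weighed heavily in it, at 20700 and 8702 CPM in DSS+BV 3, the library with the sum of 43370. The 6 neutrophil markers summed to 126.2 to 159.9 CPM in DSS and to 10.3 to 21.8 in DSS+BV. The edgeR test called 5 of them lower, beside 0.0892% of all tested genes. Because the RNA came from whole tissue, fewer cells of a type and less RNA per cell cannot be told apart in any value below.

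The 9 junction genes differed little between the groups. None of the 9 passed edgeR's test at an adjusted p under 0.05 with a change over 1 on the log2 scale, a rule under which 0.0892% of tested genes were lower and 0% higher in DSS+BV. DESeq2 also called none of the 9, against 1.73% of its tested genes called lower and 0.279% called higher. None reached an unadjusted p of 0.05 in edgeR, where 9.12% of tested genes did so on the lower side and 3.4% on the higher side. The log2 fold changes of DSS+BV against DSS ran from -0.19 for Tjp1 to 0.39 for Cgn, with a median of 0.21, and 8 of the 9 lay above 0, as did 48.6% of tested genes.

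The estimates were also narrow. Every one of the 9 intervals of 95% lay inside a 2-fold change either way, the lowest bound being -0.58 for Tjp1 and the highest 0.80, shared by Cgn and Marveld2. Leaving out each library in turn kept them inside as well, with bounds from -0.75 to 0.97. These bounds depend on the scaling between libraries. Factors taken from the 12 epithelial markers, which were higher in DSS+BV, moved the median of all tested genes from -0.01 to -0.94. The 9 genes moved with it, to values between -1.09 and -0.52. The lowest bound, for Tjp1, was then at -2.01. These factors rest on the summed counts of the markers, in which Muc2 and Car1 weighed heavily. Leaving out both, after their values were seen, put the median of all tested genes at -0.48. The lowest bound, again for Tjp1, was then at -1.2.

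**Figure D1:**
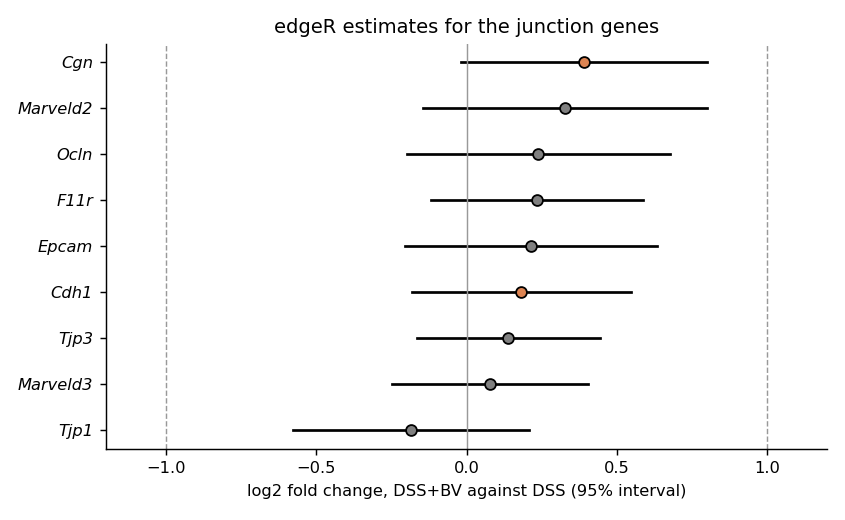
Log2 fold change of DSS+BV against DSS (x axis) for the 9 junction genes, with the 95% interval of the edgeR fit as a line; orange points mark genes whose groups do not overlap and dashed lines mark a 2-fold change. Every interval crosses 0 and ends before the dashed lines, and Tjp1 is the one gene left of 0.

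Of the membrane proteins, occludin lies in the strands of the tight junction and is widely used as a readout of barrier state. Ocln, on chromosome 13 from 100496507 to 100552718 on the minus strand (GRCm38), measured 71.9, 101.9 and 79.1 CPM in the DSS mice and 83.0, 109.2 and 106.4 CPM in the DSS+BV mice. The groups overlapped, because DSS 2 stood above DSS+BV 1. The means were 84.3 ± 15.7 CPM and 99.5 ± 14.4 CPM (SD, n = 3 each), and the log2 fold change was 0.24 with a standard error of 0.18 (edgeR quasi-likelihood test, adjusted p = 0.620).

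The start region of Ocln is shown because transcripts of factors that can repress junction genes were measured as well. Whether these factors act on Ocln in this colon was not tested. Snail, Slug and the ZEB proteins repress junction genes in epithelial cells through the E-box CAGGTG, and capitals mark this E-box and the GC box GGGCGG, on either strand. The window runs from 250 bases before to 50 after a RefSeq start of Ocln (GRCm38.p6, chr13:100552449-100552748, minus strand, written 5′ to 3′ along the gene):
Ocln: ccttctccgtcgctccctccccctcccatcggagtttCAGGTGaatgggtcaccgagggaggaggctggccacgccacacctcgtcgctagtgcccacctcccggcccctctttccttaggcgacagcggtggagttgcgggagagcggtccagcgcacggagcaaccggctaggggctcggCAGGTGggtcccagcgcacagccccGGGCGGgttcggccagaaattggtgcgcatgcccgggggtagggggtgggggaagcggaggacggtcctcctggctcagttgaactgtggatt
The E-box occurs 2 times, at -213 and -68 from the start, and the GC box 1 time. A window at another RefSeq start of Ocln (chr13:100552669-100552968) holds 1 E-box, at position 8. It is the same match as the one at -213 here.

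Tricellulin, the product of Marveld2, is the relative of occludin that seals the corners where 3 cells meet. It was the least abundant of the 9, at 42.8, 57.1 and 36.2 CPM in DSS and 49.8, 59.3 and 61.7 CPM in DSS+BV. DSS 2 again stood above DSS+BV 1, and DSS 3 was lowest. The log2 fold change was 0.33 with an interval from -0.14 to 0.80 (edgeR, adjusted p = 0.536).

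MarvelD3, the remaining occludin relative, also acts on stress kinase signalling at the junction. Marveld3 measured 73.5, 64.6 and 66.6 CPM in DSS and 78.0, 76.1 and 62.0 CPM in DSS+BV, so that the lowest of the 6 values was in DSS+BV. Its log2 fold change was 0.08 with an interval from -0.25 to 0.41 (edgeR, adjusted p = 0.837).

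F11r encodes an immunoglobulin-like adhesion protein of epithelium that is also carried by endothelium, platelets and leukocytes. It measured 231.5, 208.5 and 269.8 CPM in DSS and 268.7, 297.8 and 268.5 CPM in DSS+BV. The DSS+BV mice were close together, but DSS 3 was slightly above 2 of them. The log2 fold change was 0.23 with an interval from -0.12 to 0.59 (edgeR, adjusted p = 0.549).

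Of the plaque proteins, ZO-1 is the scaffold that joins occludin, claudins and junctional adhesion molecules to actin. Tjp1, on chromosome 7 from 65296165 to 65527781 on the minus strand, measured 269.5, 235.1 and 258.2 CPM in DSS and 253.2, 235.5 and 182.2 CPM in DSS+BV. It was the only one of the 9 with a lower mean in DSS+BV, at 223.6 ± 36.9 CPM against 254.3 ± 17.6 CPM, and most of that gap lay in DSS+BV 3. The groups overlapped and the log2 fold change was -0.19 with an interval from -0.58 to 0.21 (edgeR, adjusted p = 0.668). Without DSS+BV 3 it was -0.05.

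ZO-3, the epithelial member of the family, was steadier. Tjp3 measured 214.7, 228.7 and 196.5 CPM in DSS and 220.6, 240.2 and 244.0 CPM in DSS+BV, with DSS 2 above DSS+BV 1. The log2 fold change was 0.14 with an interval from -0.17 to 0.44 (edgeR, adjusted p = 0.677). The Tjp3 locus shares 40 bases with that of Apba3 on the opposite strand, and whether reads were counted by strand is not given in the sources used here.

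Cingulin binds ZO proteins and actomyosin. Cgn, on chromosome 3 from 94760069 to 94786492 on the minus strand, measured 201.0, 258.1 and 181.2 CPM in DSS and 259.5, 299.1 and 281.3 CPM in DSS+BV. The groups did not overlap, though the highest DSS mouse and the lowest DSS+BV mouse were nearly equal. The means were 213.4 ± 39.9 CPM and 280.0 ± 19.9 CPM, a 1.31-fold difference with an interval from 0.988 to 1.74. The difference failed the correction over all tested genes (log2 fold change 0.39, standard error 0.17, edgeR unadjusted p = 0.0578 and adjusted p = 0.413). DESeq2 gave an unadjusted p of 0.0399 and an adjusted p of 0.324.

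The start region of Cgn differed in make-up from that of Ocln, and its GC boxes are shown in capitals in the same way (GRCm38.p6, chr3:94786433-94786732, minus strand):
Cgn: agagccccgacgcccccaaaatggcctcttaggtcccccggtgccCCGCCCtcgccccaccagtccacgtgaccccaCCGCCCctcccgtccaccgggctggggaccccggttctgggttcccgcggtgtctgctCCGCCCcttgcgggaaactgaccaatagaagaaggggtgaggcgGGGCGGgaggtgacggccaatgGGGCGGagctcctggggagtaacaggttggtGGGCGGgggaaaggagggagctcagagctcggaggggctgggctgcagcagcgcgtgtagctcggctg
It holds 6 GC boxes and no CAGGTG on either strand.

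E-cadherin is the adhesion receptor of the adherens junction. Cdh1, on chromosome 8 from 106603351 to 106670246 on the plus strand, measured 1155, 1181 and 1224 CPM in DSS and 1425, 1374 and 1241 CPM in DSS+BV. The 3 DSS mice were tightly grouped and lay below each DSS+BV mouse, with DSS 3 and DSS+BV 3 only a little apart. The means were 1187 ± 34.9 CPM and 1347 ± 95.2 CPM, and the log2 fold change of 0.18, with an interval from -0.18 to 0.55, did not pass the test (edgeR, adjusted p = 0.648).

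EpCAM is an epithelial adhesion protein that binds claudin-7 and whose loss disturbs the gut lining. Epcam, on chromosome 17 from 87635979 to 87651129 on the plus strand, measured 1264, 1339 and 1474 CPM in DSS and 1364, 1749 and 1612 CPM in DSS+BV. DSS 3 stood above DSS+BV 1, so the groups overlapped. The log2 fold change was 0.21 with an interval from -0.21 to 0.63 (edgeR, adjusted p = 0.643).

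The start region of Epcam carries the E-box 2 times, at -187 on the opposite strand, where it reads CACCTG, and at -19 (GRCm38.p6, chr17:87635729-87636028, plus strand, same capitals):
Epcam: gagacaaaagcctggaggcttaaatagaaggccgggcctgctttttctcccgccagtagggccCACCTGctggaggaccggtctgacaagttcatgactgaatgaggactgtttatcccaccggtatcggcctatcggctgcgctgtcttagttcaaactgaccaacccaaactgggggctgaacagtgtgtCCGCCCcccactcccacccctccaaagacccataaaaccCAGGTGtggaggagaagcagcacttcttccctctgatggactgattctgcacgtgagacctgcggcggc
Like the window of Ocln printed above, it holds more than 1 E-box near the start. Every other window of the junction genes holds 1 E-box or none, and the Cgn window printed above holds the most GC boxes.

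Cgn and Cdh1 were thus 2 of the 9 genes whose DSS+BV values all lay above the DSS values, and none lay wholly below. Over all tested genes, 6.37% were separated upward and 11.3% downward. In the exact permutation test both reached p = 0.1, the smallest value that 3 libraries against 3 can give, and the other 7 genes gave p from 0.2 to 0.7.

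**Figure D2:**
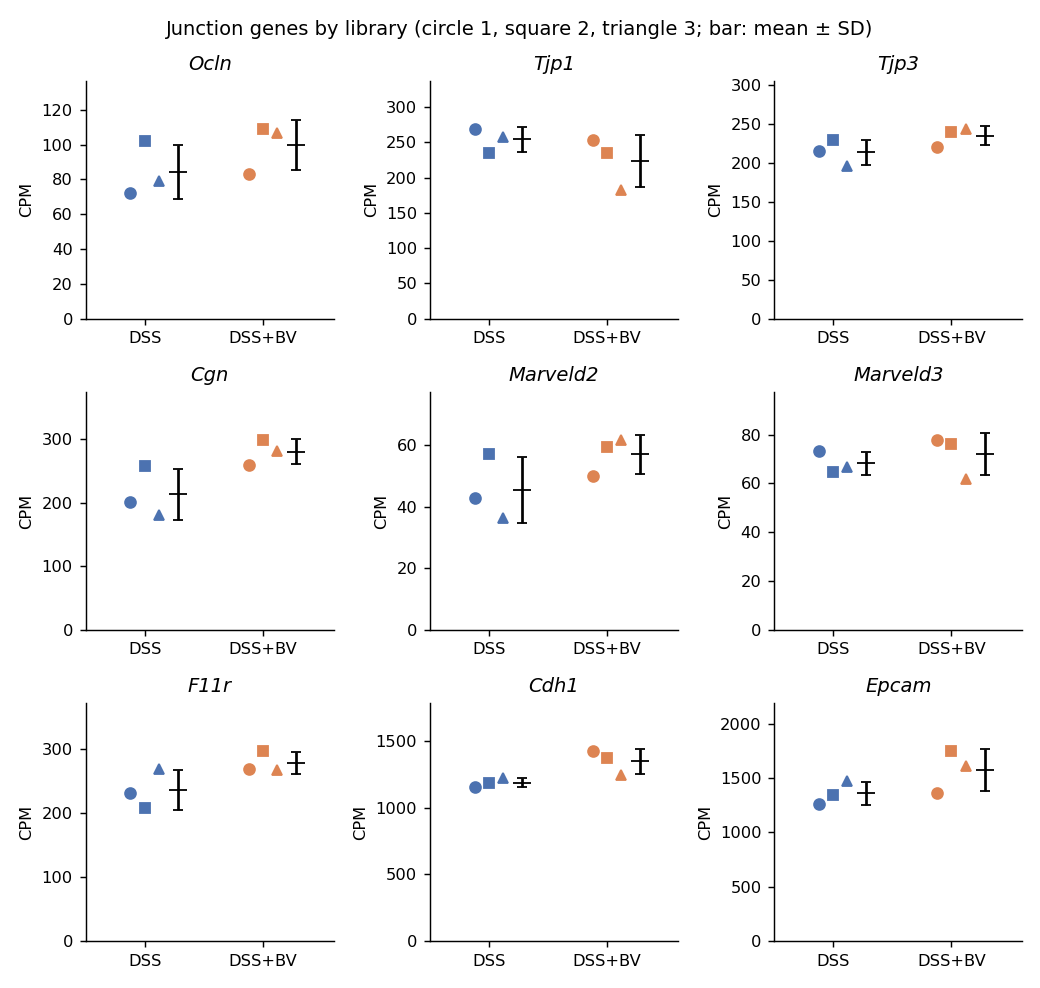
CPM (y axis, from 0) of each junction gene in the 3 DSS and 3 DSS+BV libraries, with circles, squares and triangles for libraries 1, 2 and 3 and the mean ± SD beside them. Cgn and Cdh1 show DSS+BV points wholly above the DSS points, and the lowest Tjp1 point is 182.2 CPM in DSS+BV 3.

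Over the 6 libraries of both groups, the 9 genes varied much as other genes of their abundance did. The ratio of the highest to the lowest of the 6 libraries ran from 1.23 for Cdh1 to 1.71 for Marveld2, with a median of 1.43. The median was 1.54 over the 4556 tested genes at least as abundant as Marveld2, and 1.81 over all tested genes. Among those 4556 genes 37.1% had a ratio below the median of the 9, and 62.55% had a ratio below the highest of the 9.

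Levels differed far more between the genes than between the groups. Per kilobase of exon, Epcam stood highest at a mean of 668 CPM per kb over the 6 libraries, followed by Cdh1 at 277 and F11r at 96.7. Tjp3 followed at 60.3 CPM per kb, Cgn at 41.0, Tjp1 at 30.6, Ocln at 21.8, Marveld3 at 21.4 and Marveld2 at 15.1. From Epcam down to Cgn the ranges of neighbours in this order did not overlap. The ranges of Cgn and Tjp1, of Tjp1 and Ocln, and of Ocln and Marveld3 did overlap, and Ocln exceeded Marveld3 in 3 of the 6 libraries. Tjp1 lay below Tjp3 per kilobase in each of the 6 libraries. These lengths join the exons of all annotated transcripts, so a gene with long rarely used exons is placed too low.

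Across the 6 mice, Ocln, Tjp3 and Marveld2 were high and low in the same animals. Each had its 3 highest values in DSS 2, DSS+BV 2 and DSS+BV 3. Cgn followed them closely too, though its 3 highest values were in the DSS+BV mice. Its log2 CPM correlated with that of Ocln, Tjp3 and Marveld2 at 0.85, 0.94 and 0.96 (Pearson, n = 6 libraries). Among those 3 genes the correlations were 0.83 to 0.98. Tjp1 had its 3 highest values in DSS 1, DSS 3 and DSS+BV 1. Of the 8 leukocyte markers 6 were lower in each of DSS 2, DSS+BV 2 and DSS+BV 3 than in each of the other mice. Itgam and Cd3e were not. This split of the mice was named after the values were seen. Without the share of all tested genes, 6 of 8 cannot be read as particular to leukocyte markers. Ptprc, the pan-leukocyte phosphatase CD45, measured 112.9, 55.0 and 157.8 CPM in DSS and 148.7, 41.2 and 36.5 CPM in DSS+BV. Laptm5, a lysosomal protein of blood cells, measured 123.8, 62.3 and 159.6 CPM against 139.8, 43.1 and 38.6 CPM. Cd79a, part of the B cell receptor and picked here after its values were seen, measured 39.1, 4.48 and 66.9 CPM against 53.0, 1.91 and 2.66 CPM. The sum of all 8 leukocyte markers ran from 283.1 to 736.8 CPM in DSS and from 160.9 to 582.2 in DSS+BV. The part of these cells in the junction gene values was not tested. Over the log2 CPM of all tested genes, DSS 2 also correlated more with DSS+BV 2 and DSS+BV 3 (0.963 and 0.955) than with DSS 1 and DSS 3 (0.936 each). DSS+BV 1 correlated most with DSS 1 (0.967), but more with DSS+BV 2 (0.960) than with DSS 3 (0.944). The share of all tested genes split in this way was not counted. The log2 fold changes of Ocln, Tjp3 and Marveld2 moved with the mouse left out. Ocln ran from 0.14 without DSS 1 to 0.41 without DSS 2, and Tjp3 from 0.08 without DSS 3 to 0.21 without DSS 2. Marveld2 ran from 0.19 without DSS 3 to 0.54 without DSS 2. Cgn moved in the same way, from 0.29 without DSS 3 to 0.57 without DSS 2.

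**Figure D3:**
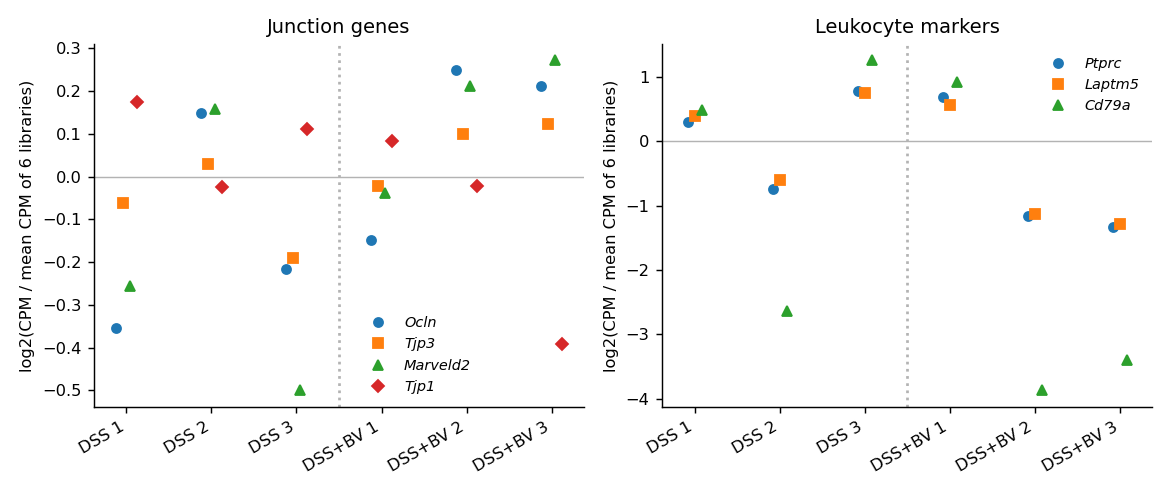
Log2 of CPM over the mean of the 6 libraries (y axis) for Ocln, Tjp3, Marveld2 and Tjp1 (left) and for the leukocyte markers Ptprc, Laptm5 and Cd79a (right), by library, with a dotted line between DSS and DSS+BV. Ocln, Tjp3 and Marveld2 are above 0 in DSS 2, DSS+BV 2 and DSS+BV 3, where the leukocyte markers are below 0.

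The 9 genes were also set against other epithelial transcripts of the same library. The level of each was taken as its log2 CPM minus the mean log2 CPM of the 12 epithelial markers, among which Muc2, the main mucin of goblet cells, and the keratin gene Krt8 were the most abundant. Since these markers were higher in DSS+BV, this scale lowers every gene there, and the median difference over all tested genes was -0.68. Tjp1 differed most, with -1.33, -1.97 and -1.80 in DSS and -2.12, -2.75 and -2.86 in DSS+BV, a difference of -0.88. Ocln measured -3.24, -3.17 and -3.51 in DSS and -3.73, -3.86 and -3.63 in DSS+BV, a difference of -0.44 in the opposite direction to its CPM. The differences were -0.54 for Tjp3 and -0.47 for Epcam, and these 4 of the 9 genes lay wholly lower in DSS+BV (exact permutation p = 0.1 each, the smallest possible). That share is no higher than the background, as 50.3% of all tested genes did so on this scale. The other 5 overlapped, with differences from -0.61 for Marveld3 to -0.28 for Cgn. Tjp1 was the one gene of the 9 below the median of all tested genes, of which 31.7% had a still lower difference.

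A pair of the 12 markers varied widely among the mice. Car1, a carbonic anhydrase of surface colonocytes, measured 825, 1041 and 939 CPM in DSS and 924, 10450 and 8702 CPM in DSS+BV. Muc2 measured 2339, 10170 and 4239 CPM against 6878, 8265 and 20700 CPM. Leaving out both, a choice made after seeing these values, brought the Ocln difference to -0.23 and that of Epcam to -0.27, with overlapping groups. Tjp1 at -0.67, Marveld3 at -0.40 and Cdh1 at -0.29 were then the 3 genes without overlap, against 37.6% of all tested genes separated downward. Against the 4 keratins Krt8, Krt18, Krt19 and Krt20 alone the same 3 genes were without overlap, Tjp1 at -0.77, Marveld3 at -0.50 and Cdh1 at -0.39, against 40.1% of all tested genes. Tjp1 was without overlap against each of the 3 references. So wide a share of all genes was separated on these scales that this sets none of the 9 apart. The 3 references also share the 4 keratins. Each shifts all genes of a library alike, so the order of the 9 by difference is fixed by their log2 CPM. Krt8 itself measured 3290, 3336 and 3472 CPM in DSS and 5449, 6249 and 4012 CPM in DSS+BV.

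**Figure D4:**
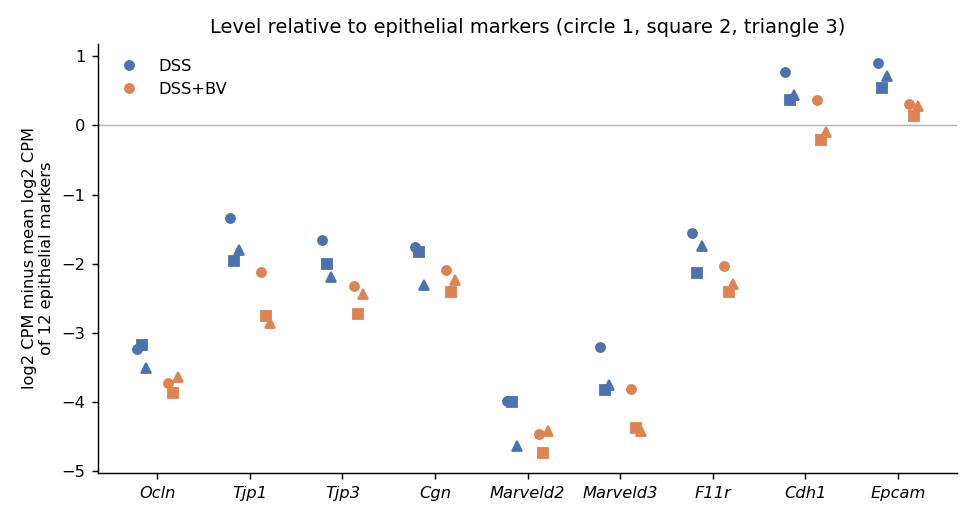
Log2 CPM of each junction gene minus the mean log2 CPM of the 12 epithelial markers of the same library (y axis), with circles, squares and triangles for libraries 1, 2 and 3. Tjp1, Tjp3, Ocln and Epcam show DSS+BV points wholly below the DSS points, as did 50.3% of all tested genes.

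Ratios between the junction genes, which do not depend on scaling between libraries, were compared for 6 pairs. The log2 ratio of Cgn to Tjp1 was -0.42, 0.13 and -0.51 in DSS and 0.04, 0.34 and 0.63 in DSS+BV. DSS 2 exceeded DSS+BV 1, so the groups overlapped despite a difference of 0.60 (exact permutation p = 0.2). Tjp3 to Tjp1 differed by 0.34, also with overlap. The ratio of Cdh1 to Epcam was level, at a difference of -0.03, and no pair separated the groups. Without DSS 2, 2 of the 6 pairs separated them, and without DSS+BV 1, 3 did. Groups of fewer libraries separate more readily, so such counts tend to rise when a library is left out.

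Further junction genes were read from 7 lists holding 94 tested genes. None was called by edgeR, and 13 were separated downward and 9 upward, beside 11.3% and 6.37% of all tested genes. Their median log2 fold change was 0.17 against -0.01 over all tested genes. At an unadjusted p under 0.05 edgeR placed 12 lower and 4 higher, beside 9.12% and 3.4% of all tested genes. DESeq2 called 2 of them, both lower and both transcription factors, beside 1.73% of its tested genes called lower. The same shares stand beside the counts of each list below.

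Among 10 other transmembrane tight junction proteins the median was -0.14, and 3 were separated downward. Ildr2, an angulin of tricellular contacts, did not pass the adjusted threshold at -1.29 (edgeR, adjusted p = 0.383), nor did Jam3, an adhesion protein of endothelium and leukocytes as well as epithelium, at -0.89. Ildr1, which recruits tricellulin to cell corners and was the most abundant here, measured 0.28 with overlapping groups.

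Of 21 other plaque and polarity proteins 4 were separated downward and the median was 0.06. The 2 lowest were Magi2, a scaffold of PDZ domains, at -1.01 and Amotl2, an angiomotin of endothelial and epithelial junctions, at -0.71. The most abundant, Ybx3, the Y-box protein that binds ZO-1, measured 0.06.

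The 10 claudins had a median of 0.18, with 7 of the 10 above 0, and varied more than the 9 junction genes, at a median ratio of highest to lowest library of 5.15. The largest estimates, named after their values were seen, were those of Cldn2 at 1.94, Cldn15 at 1.17 and Cldn4 at 1.01, each with overlapping groups and an interval that crossed 0. Cldn7, the partner of EpCAM and the most abundant claudin, was steady at 438.8, 415.7 and 408.2 CPM in DSS and 421.5, 476.7 and 490.9 CPM in DSS+BV. Its log2 fold change was 0.14. Cldn5, the claudin typical of endothelium, was separated downward at -1.28 (edgeR, adjusted p = 0.347). The 7 endothelial markers were all lower in mean, at a median of -0.62, and their part in the Cldn5 and Jam3 values was not tested.

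The adherens junction and desmosome lists had medians of 0.22 over 14 genes and 0.34 over 9 genes and 2 genes separated upward in each. Nectin3, an adhesion receptor of the adherens junction, measured 0.62, and Ctnnd1, the p120-catenin that keeps E-cadherin at the membrane, 0.31. Cdh17, the liver-intestine cadherin and most abundant of its list, measured 0.31 with overlap. In the desmosome list Perp measured 0.40 and Pkp2 0.34, while desmoplakin (Dsp), the most abundant, measured 0.15 with overlap. None of these passed the adjusted test.

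Among 12 regulators of junction tension and proteolysis the median was 0.09. Rock2, a kinase that raises actomyosin tension, and Arhgef11, which is recruited by ZO-1, were separated upward at 0.28 and 0.22, and Arhgef18, whose product binds cingulin, downward at -0.21. The protease inhibitor Spint2, which guards EpCAM and claudin-7 from cleavage, was most abundant and measured 0.39 with overlap.

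The 18 transcription and splicing regulators held the widest differences. Snai1, encoding Snail, measured 9.46, 6.28 and 9.43 CPM in DSS and 3.30, 3.25 and 4.05 CPM in DSS+BV, with no overlap. DESeq2 called it at a log2 fold change of -1.23 (adjusted p = 0.00603), whereas edgeR did not at -1.25 (adjusted p = 0.218). Twist2, a mesenchymal factor, was the other gene DESeq2 called, at -2.13 (adjusted p = 0.00404, against 0.186 in edgeR), from 3.24 ± 1.15 CPM to 0.729 ± 0.136 CPM. Twist1 measured -1.47 and Snai2, encoding Slug, -1.09, both without overlap. The ZEB genes were more abundant, Zeb1 at a mean of 35.1 CPM and Zeb2 at 48.1 CPM, and their groups overlapped. Zeb1 measured -0.58 and Zeb2 -0.68 (edgeR, adjusted p = 0.395 and 0.414). On the epithelial side Hnf4a, a master regulator of enterocyte genes, measured 0.64 and Esrp2, an epithelial splicing factor, 0.61. Grhl2, a regulator of Cdh1 and claudin genes, measured 0.55. These 3 were without overlap and none passed the adjusted test. The other epithelial regulators of the list overlapped, from 0.03 for Ovol2 and 0.04 for Elf3 to 1.16 for Cdx2. In the whole list 4 genes were separated downward and 3 upward, beside 11.3% and 6.37% of all tested genes. Fibroblasts also express Snai2 and the Twist genes, and the 8 fibroblast markers were all lower in mean at a median of -0.82, with sums of 2327 to 2861 CPM in DSS and 1167 to 1651 in DSS+BV. The part of fibroblasts in these regulators was not tested.

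**Figure D5:**
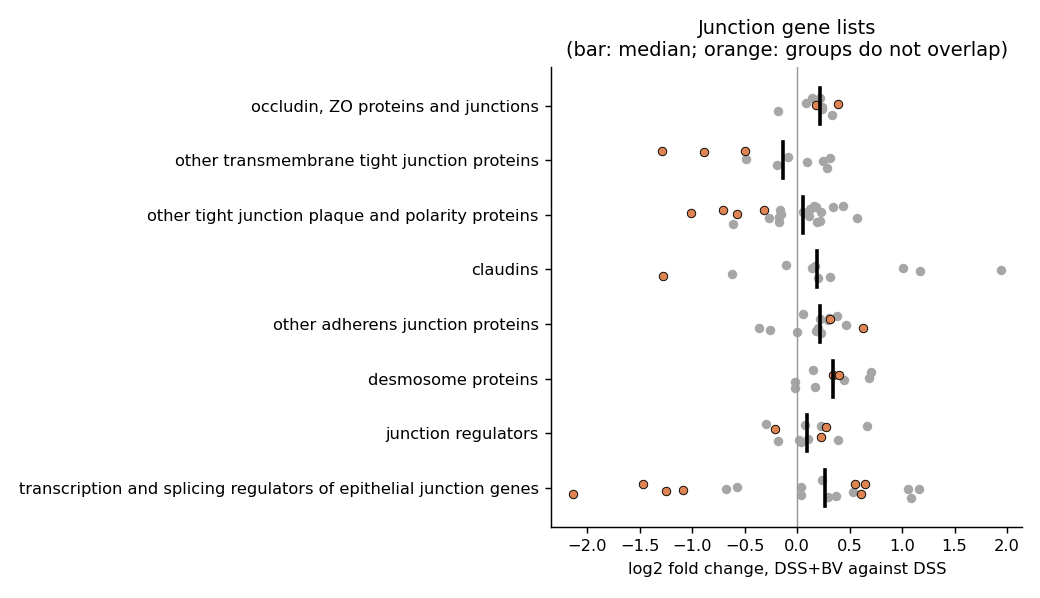
Log2 fold change of DSS+BV against DSS (x axis) for the 9 junction genes and for each gene of the 7 other lists (rows), with a bar at each list's median and orange points where the groups do not overlap. The 9 genes lie between -0.19 and 0.39, and the regulators run from -2.14 to 1.16.

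The E-box read by Snail and ZEB proteins was looked for near the start of each junction gene with a window in the RefSeq promoter set. Of the 9 genes 7 were matched, with 10 windows of 300 bases between them, and Cdh1 and Marveld3 were not. CAGGTG occurred on either strand in at least 1 window of 5 of the 7 genes, namely Ocln, Marveld2, Tjp3, F11r and Epcam, and in none of Tjp1 and Cgn. By window this was 8 of 10, beside 20.2% of all 32851 windows of that length, and by gene 22.6% of the 27025 genes with a window held it. The GC box GGGCGG occurred for 6 of the 7, all but Tjp3, and in 8 of the 10 windows, beside 38.2% of all genes and 35.7% of all windows. The Grainyhead-like site AACCGGTT occurred in no window of the 7 genes and in 0.1% of all windows. These are matches of letters and describe the sequence alone. Some windows of one gene overlap and share a match.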

How the data were processed

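Colon RNA of 6 mice was sequenced, 1 library per mouse. The authors deposited estimated counts per gene, which their methods attribute to RSEM. The submitters' processing notes name HISAT2 2.1.0, Bowtie2 2.2.5, RSEM 1.2.8 and the build GRCm38.p6, without roles. The values of the 9 genes were whole in every library, and 1573 other genes held values that were not, which were rounded. The setting for strand was not given in the sources used here.

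Genes were kept by filterByExpr of edgeR 4.0.16 (minimum count 10, minimum total 15), which left 14579 of the 18477 listed genes. No count was recorded for 534 of those listed. Libraries were scaled by TMM and compared by the quasi-likelihood test in R 4.3.3 (limma 3.58.1), with Benjamini-Hochberg adjustment over the genes tested. A gene was called when its adjusted p was below 0.05 and its log2 fold change beyond 1 in either direction. Intervals are at 95%. DESeq2 1.42.0 was the alternative, along with other factors, filters and the omission of each library. Levels relative to markers used log2 CPM with a prior count of 2. The exact permutation tests were two-sided. The counts of a single gene were between 621 and 27454 per library for the 9 genes, so counting error was small beside the spread between mice. The edgeR and DESeq2 p-values weigh a group difference against a spread between mice that is estimated in part from other genes. The permutation p-values use the 6 values of each gene alone.

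The 9 genes and all lists were chosen with earlier results of these data known. From each junction list the text names genes called by edgeR, otherwise up to 2 highest and 2 lowest among those whose groups did not overlap, and the most abundant gene. Snai1, Snai2, Zeb1, Zeb2, Grhl2, Cldn2, Cldn4, Cldn15, Cd79a, Itgam, Cd3e and Car1 were named after their values were seen. Gene positions and exon lengths are from GENCODE M21 (GRCm38), promoter windows from RefSeq (GRCm38.p6). Figures were drawn with matplotlib 3.10.9.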

Additional observations from a re-analysis of the deposited data

How the results depend on the processing

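No alternative called any of the 9 junction genes, and each kept its sign except under scaling to epithelial markers. With factors from the 12 markers the log2 fold changes became -0.68 for Ocln, -0.79 for Tjp3, -0.52 for Cgn, -0.59 for Marveld2, -0.84 for Marveld3, -0.71 for F11r, -0.72 for Cdh1 and -0.73 for Epcam, as the median of all tested genes moved to -0.94. With factors that left out Car1 and Muc2, added after seeing the data, they were -0.21, -0.32, -0.074, -0.13, -0.41, -0.23, -0.29 and -0.25 in the same order, with the median at -0.48. Tjp1 was at -1.09 and -0.68 in these fits. Over all genes, DESeq2 called 280 lower and 45 higher, against 13 and 0 in edgeR, and 2 lower among the 7 junction lists. With each library left out, edgeR called 0 to 3 lower and 0 to 4 higher, the upper ends without DSS+BV 1. Junction genes separated from the 12 markers numbered 4, and 4 to 7 with a library left out, 7 without DSS 2 or without DSS+BV 1. Separated ratios numbered 0, and 0 to 3 with a library left out. Both counts tend to rise with fewer libraries, and the matching shares of all tested genes were not computed. After each gene's group mean was taken off, libraries with the same number had correlations of 0.27, 0.25 and -0.30. With 3 libraries per group these values cannot show whether the numbers pair the mice. With a replicate block edgeR called 0 genes lower, Cgn measured 0.41 and Tjp1 -0.20, and no junction gene was called.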

Other observations

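The tested genes whose log2 CPM followed each junction gene most closely over the 6 libraries were listed as a description, without a test, since all 14579 tested genes were ranked over few mice that share a split in leukocyte markers. Crb3, which encodes an apical polarity protein, was among the 3 closest to Epcam. Tjp3 was followed most closely by Sh3glb2, Cgn by Ccdc47, Ocln by Cdc14a, Marveld2 by Atp8b1, Cdh1 by Cggbp1, Tjp1 by Ccdc93, Marveld3 by Cnot4 and F11r by Slc4a11. The correlation of each gene with its closest follower lay between 0.982 for F11r and 0.9995 for Cgn (Pearson, n = 6 libraries).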
